A study of Mus musculus with 10 samples.

Results

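The genes described here are Nfil3 and 9 genes of the circadian clock and its output, Dbp, Tef, Hlf, Per1, Per2, Per3, Nr1d1, Nr1d2 and Arntl, 10 of the 26063 genes in the deposited table. They were taken by gene symbol, and all 10 passed the filter on low counts that left 14915 genes for testing. The set was selected on the difference of Nfil3 between the tumour genotypes in these same libraries, so the differences of these genes between genotypes are given as a description and carry no test. The tumours were mammary tumours of female mice of the inbred strain FVB/N, 1 tumour per animal, 5 from mice of genotype 16IC/WT (called 16IC) and 5 from mice of genotype EIC/WT (called EIC). The labels do not spell out 16IC and EIC, and the series title speaks of a HER2 variant, ENPP1 and a microenvironment poor in immune cells. Mice of both genotypes received 2 mg/ml doxycycline, and tumours were frozen at end point and profiled by bulk RNA sequencing. No hour of harvest is given in the labels, so the part played by time of day was not tested.

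The mammalian clock is a feedback loop of transcription. BMAL1, the product of Arntl, pairs with CLOCK and drives genes with E-box sequences, among them the Per and Cry genes, whose proteins in turn inhibit the pair, and Nr1d1 and Nr1d2, whose REV-ERB proteins repress Arntl and Nfil3 through ROR elements. The activators DBP, TEF and HLF and the repressor NFIL3 compete for D-box sequences of output genes, and in mouse liver Nfil3 peaks when Dbp is low. Nfil3 is also known for its role in the development of natural killer and other innate lymphoid cells in mice.

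Promoter windows from 250 bases before to 50 after a gene start (RefSeq, GRCm38.p6) were found for 9 of the 10 genes, 12 windows in all, since Tef, Per1 and Arntl have more than 1 start. They were searched on both strands for an E-box (CACGTG), a D-box (TTATGTAA or TTACGTAA), the core of a ROR element (TAGGTCA) and a cAMP response element (TGACGTCA). The 6 windows below are shown because they hold a match to the E-box, the D-box or the ROR element core, with the match in capitals. They read 5′ to 3′ on the gene's strand.
Nfil3, chr13:52980990-52981289, minus strand: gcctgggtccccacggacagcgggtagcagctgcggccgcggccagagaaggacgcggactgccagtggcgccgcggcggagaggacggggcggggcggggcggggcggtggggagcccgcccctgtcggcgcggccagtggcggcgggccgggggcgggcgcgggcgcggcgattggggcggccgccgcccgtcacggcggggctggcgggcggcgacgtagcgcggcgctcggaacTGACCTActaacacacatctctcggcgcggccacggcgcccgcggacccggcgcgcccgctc
Arntl, chr7:113207261-113207560, plus strand: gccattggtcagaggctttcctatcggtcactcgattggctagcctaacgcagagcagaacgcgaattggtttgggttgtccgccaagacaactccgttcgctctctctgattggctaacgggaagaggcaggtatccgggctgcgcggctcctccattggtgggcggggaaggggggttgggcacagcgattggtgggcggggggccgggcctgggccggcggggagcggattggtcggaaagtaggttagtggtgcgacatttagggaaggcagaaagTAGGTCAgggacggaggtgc
Tef, chr15:81802423-81802722, plus strand: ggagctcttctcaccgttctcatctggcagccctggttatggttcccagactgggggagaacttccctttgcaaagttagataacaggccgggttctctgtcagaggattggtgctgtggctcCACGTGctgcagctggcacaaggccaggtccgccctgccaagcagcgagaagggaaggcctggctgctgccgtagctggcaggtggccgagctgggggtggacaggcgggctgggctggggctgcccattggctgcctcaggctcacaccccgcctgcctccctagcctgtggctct
Tef, chr15:81811164-81811463, plus strand: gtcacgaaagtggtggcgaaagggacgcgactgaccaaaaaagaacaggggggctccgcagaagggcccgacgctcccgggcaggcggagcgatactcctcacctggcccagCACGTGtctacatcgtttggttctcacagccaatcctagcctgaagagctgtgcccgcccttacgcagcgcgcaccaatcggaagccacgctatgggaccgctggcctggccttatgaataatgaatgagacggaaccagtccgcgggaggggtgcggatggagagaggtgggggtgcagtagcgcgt
Per1, chr11:69098699-69098998, plus strand: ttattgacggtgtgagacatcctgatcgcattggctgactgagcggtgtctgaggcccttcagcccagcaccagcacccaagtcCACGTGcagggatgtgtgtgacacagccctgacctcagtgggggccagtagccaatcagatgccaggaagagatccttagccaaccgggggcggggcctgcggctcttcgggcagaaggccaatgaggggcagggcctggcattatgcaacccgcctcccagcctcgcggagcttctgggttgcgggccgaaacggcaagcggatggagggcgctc
Per3, chr4:151044616-151044915, minus strand: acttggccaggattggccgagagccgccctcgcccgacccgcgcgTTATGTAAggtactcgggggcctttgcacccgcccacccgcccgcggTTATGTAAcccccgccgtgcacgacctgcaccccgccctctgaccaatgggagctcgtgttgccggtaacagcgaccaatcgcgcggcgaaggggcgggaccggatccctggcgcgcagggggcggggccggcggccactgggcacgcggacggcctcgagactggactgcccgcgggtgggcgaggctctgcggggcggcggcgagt
The Nfil3 window holds the core of a ROR element on the opposite strand, its first base 12 bases before the start, and a window of Arntl holds the same core shortly after the start. Each Tef window holds an E-box, 127 and 138 bases before its start, and a Per1 window holds an E-box 166 bases before the start. The Per3 window holds 2 copies of the D-box, 205 and 158 bases before the start. The Hlf window, at chr11:90390868-90391167, holds a cAMP response element 9 bases before the start. In the windows of Dbp, Nr1d1 and Nr1d2 none of the 4 kinds of motif was matched, which says only that these letters are not in those windows. Of all 32544 promoter windows, 7.17% held an E-box, 1.05% a D-box, 2.61% a ROR element core and 1.80% a cAMP response element. A match is a description of the sequence and not a measured binding site.

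Libraries held 14813940 to 16947400 counts, and the biological coefficient of variation of a gene was 33.6% at the median. Levels below are CPM (counts scaled to library size, with TMM factors) and differences are log2 of 16IC over EIC from edgeR, with positions on GRCm38. The luminal epithelial markers expected of mammary tumours were abundant as a sum. Over 7 markers it was 3969 to 5725 CPM in 16IC and 3909 to 6050 CPM in EIC. Among them Krt19 ranged from 0.0 to 343 CPM in 16IC and from 2.79 to 446 CPM in EIC. Across all genes edgeR's quasi-likelihood test called 0 of 14915 after adjustment (0.0%), 1958 had an unadjusted p under 0.05 (13.1%), and DESeq2 called 356 (2.11%). In bulk tumours, fewer cells of a type and less RNA per cell cannot be told apart.

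Nfil3 (chr13:52967209-52981073, minus strand), the repressor of D-box genes, was lower in 16IC. It had 4.32, 6.90, 4.50, 5.96 and 4.81 CPM in the 16IC tumours 1 to 5, against 24.7, 13.4, 10.4, 14.1 and 22.5 CPM in the EIC tumours 1 to 5. Every 16IC tumour was below every EIC tumour, and the highest values were those of EIC 1 and EIC 5. Means were 5.30 ± 1.10 CPM in 16IC and 17.0 ± 6.22 CPM in EIC (SD, n = 5 each), a log2 difference of -1.68 (SE 0.28, 95% interval -2.30 to -1.06), so that EIC was 3.21-fold higher. Leaving out each tumour in turn moved this difference between -1.82 (without EIC 3) and -1.51 (without EIC 1). These values rest on 60 to 426 counts of Nfil3 per library. Nfil3 was the only one of the 10 genes whose groups did not overlap, in a table where 1.19% of genes tested were lower in 16IC without overlap and 1.39% higher. As Nfil3 was picked for this difference, that count is printed beside the background and nothing is read from it.

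**Figure D1:**
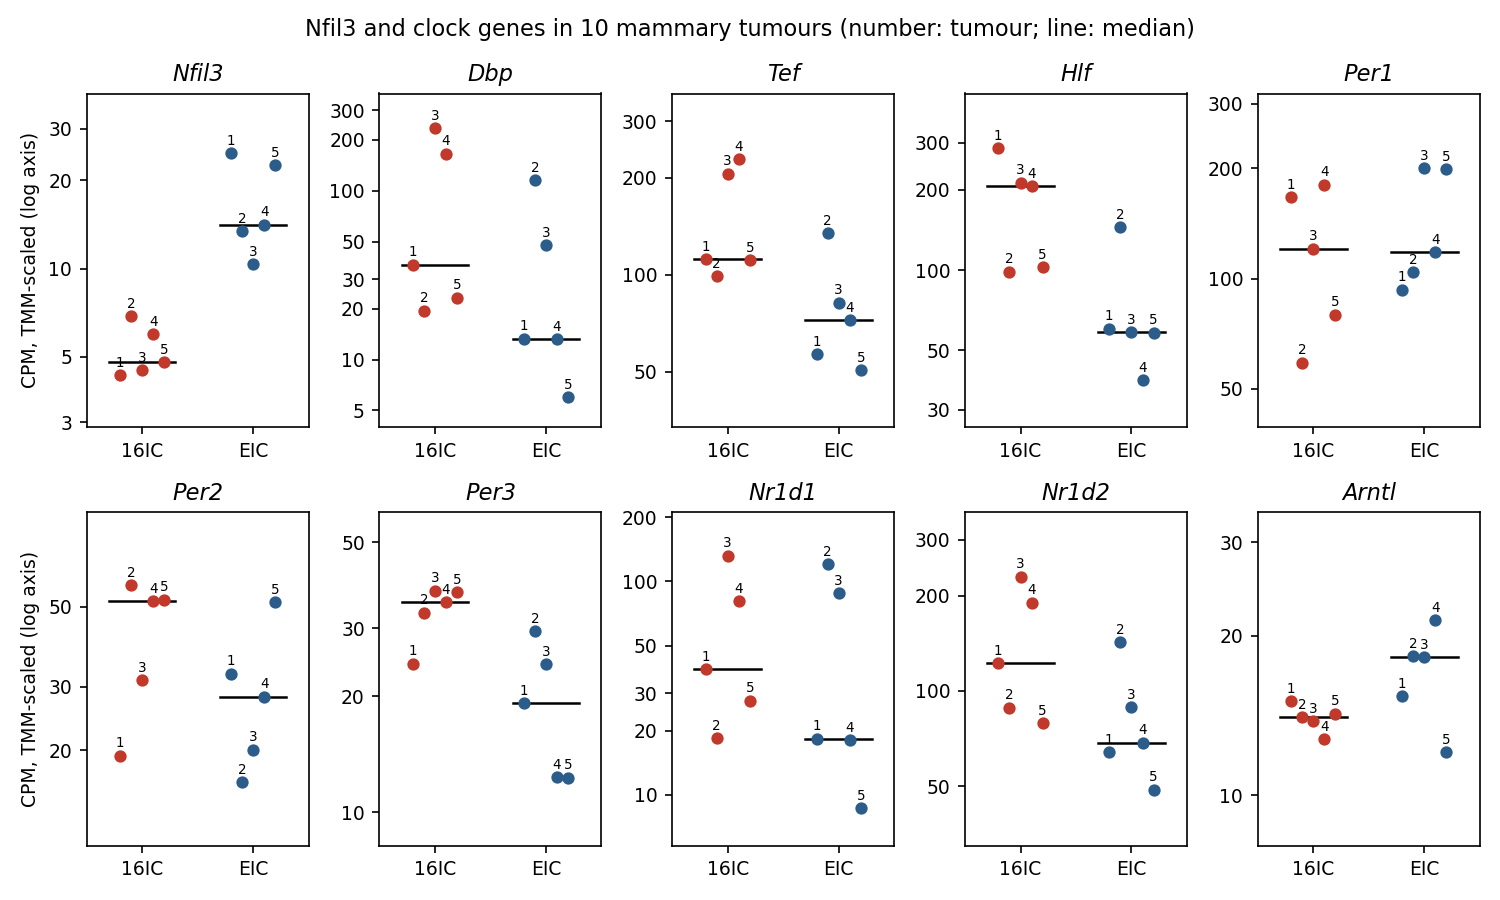
Level of each of the 10 genes in each of the 10 tumours, in TMM-scaled CPM on a logarithmic axis, with 16IC (red) left of EIC (blue). Points carry the number of the tumour and lines mark the group medians. Nfil3 lies at 4.32 to 6.90 CPM in 16IC and 10.4 to 24.7 CPM in EIC, while the groups of the other 9 genes overlap.

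Dbp (chr7:45705088-45710203, plus strand) encodes the activator that competes with NFIL3 for D-boxes. It had 36.5, 19.4, 236, 166 and 23.2 CPM in the 16IC tumours 1 to 5, against 13.3, 115, 47.8, 13.2 and 5.96 CPM in the EIC tumours 1 to 5. The groups overlapped widely: 16IC 3, 16IC 4 and EIC 2 stood above 100 CPM, and EIC 5 was lowest. The highest tumour had 39.5 times the level of the lowest. Means were 96.1 ± 98.9 CPM in 16IC and 39.1 ± 45.6 CPM in EIC (SD, n = 5 each), a log2 difference of 1.30 (SE 0.93, 95% interval -0.77 to 3.36), so the interval spans 0. Without 16IC 3 the difference was 0.65 and without EIC 2 it was 2.27. Part of the Dbp locus is shared with Sphk2 on the opposite strand, 18.0% of the exonic length of Dbp, and no source used here says whether the authors counted reads by strand, so the Dbp values are uncertain to that extent. Sphk2 itself varied 1.64-fold between tumours.

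Tef (chr15:81802421-81826863, plus strand) encodes another activator of the same family, and was highest in the tumours that were highest for Dbp. It had 112, 99.3, 206, 228 and 111 CPM in the 16IC tumours 1 to 5, against 56.8, 135, 82.1, 72.2 and 50.5 CPM in the EIC tumours 1 to 5. EIC 2 overlapped the 16IC range, and the other 4 EIC tumours lay below it. The log2 difference was 0.93 (SE 0.33, 95% interval 0.20 to 1.66). Hlf (chr11:90336536-90390895, minus strand) encodes the third activator of the family. It had 287, 98.7, 213, 207 and 102 CPM in the 16IC tumours 1 to 5, against 60.3, 145, 58.4, 38.6 and 58.3 CPM in the EIC tumours 1 to 5. EIC 2 again lay inside the 16IC range and stood apart from its own group. The log2 difference of Hlf was 1.33 (SE 0.41, 95% interval 0.43 to 2.23), and it was 1.76 without EIC 2.

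The 3 Per genes, which encode repressors of the loop, did not share a pattern. Per1 (chr11:69095217-69109960, plus strand), which also responds to glucocorticoids and cAMP, had 167, 58.9, 121, 181 and 79.6 CPM in the 16IC tumours, against 93.2, 104, 200, 118 and 199 CPM in the EIC tumours, a log2 difference of -0.23 (SE 0.34). Per2 (chr1:91415982-91459324, minus strand) had 19.3, 57.4, 31.3, 51.8 and 52.4 CPM in the 16IC tumours, against 32.6, 16.3, 20.1, 28.1 and 51.6 CPM in the EIC tumours, a log2 difference of 0.51 (SE 0.37). Both overlapped between the genotypes over most of their range. Per3 (chr4:151003652-151044665, minus strand), the gene with 2 D-boxes in its window, had 24.3, 32.9, 37.5, 35.0 and 37.1 CPM in the 16IC tumours, against 19.2, 29.4, 24.1, 12.3 and 12.3 CPM in the EIC tumours. Of the 16IC tumours only 16IC 1 came within the EIC range, and the log2 difference of Per3 was 0.78 (SE 0.26, 95% interval 0.20 to 1.35).

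Nr1d1 and Nr1d2, which encode the REV-ERB repressors of Arntl and Nfil3, spread across both genotypes. Nr1d1 (chr11:98767932-98775333, minus strand) had 38.7, 18.4, 132, 81.0 and 27.7 CPM in the 16IC tumours 1 to 5, against 18.4, 120, 88.1, 18.1 and 8.67 CPM in the EIC tumours 1 to 5. Nr1d2 (chr14:18204054-18239127, minus strand) had 122, 88.7, 229, 190 and 79.0 CPM in the 16IC tumours 1 to 5, against 64.2, 142, 88.7, 68.6 and 48.8 CPM in the EIC tumours 1 to 5. For both genes 16IC 3 was highest, EIC 5 was lowest and EIC 2 stood highest in its group. The log2 difference was 0.23 (SE 0.77) for Nr1d1 and 0.78 (SE 0.36) for Nr1d2. That of Nr1d1 had no stable sign, being -0.29 without 16IC 3, -0.04 without EIC 5 and 0.85 without EIC 2. Nr1d1 shares 8.55% of its exonic length with Thra on the opposite strand.

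Arntl (chr7:113207465-113314126, plus strand), the activator at the top of the loop and a target of REV-ERB repression like Nfil3, varied least. It had 15.1, 14.0, 13.8, 12.8 and 14.2 CPM in the 16IC tumours, against 15.4, 18.3, 18.2, 21.4 and 12.0 CPM in the EIC tumours. The whole 16IC group lay within the EIC range, and the log2 difference was -0.29 (SE 0.17, 95% interval -0.67 to 0.10).

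Taken by count, 7 of the 10 genes had a higher mean in 16IC and 3 a lower one, with the same split under scaling to total counts. Their median log2 difference was 0.64, against -0.02 over all genes tested, of which 47.7% were higher in 16IC. The differences of Nfil3, Tef, Hlf and Per3, 4 of the 10, had an unadjusted edgeR p under 0.05 (13.1% of all genes), none passed edgeR's adjustment (0.0%) and Nfil3 was called by DESeq2 (2.11%). The genotype contrast that chose the set gives these counts and calls. They describe the set only, and are neither a test of it nor support for a difference.

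Per exonic length, in the authors' FPKM, the order of levels differed between the genotypes. In 16IC, Dbp was first at 30.8 ± 31.3 FPKM, followed by Hlf at 26.3 ± 11.8, Nr1d2 at 25.3 ± 11.3, Per1 at 20.9 ± 9.21, Nr1d1 at 18.6 ± 14.4 and Tef at 18.5 ± 7.32 FPKM. In EIC, Per1 was first at 24.6 ± 8.97 FPKM, followed by Nr1d1 at 16.0 ± 15.8, Nr1d2 at 14.8 ± 6.44, Dbp at 12.6 ± 14.7, Hlf at 10.5 ± 6.01 and Tef at 9.78 ± 4.07 FPKM (SD, n = 5 each). Neighbours in these orders differ by less than their spread between tumours. The first place of Dbp in 16IC is that of a mean raised by 16IC 3 and 16IC 4. These tumours had 236 and 166 CPM, against a median of 36.5 CPM in 16IC. Nfil3 stood at 2.53 ± 0.51 FPKM in 16IC, between Per3 (3.35 ± 0.52) and Arntl (1.80 ± 0.12), and at 8.20 ± 3.09 FPKM in EIC, above Per2 (4.94 ± 2.30).

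Within a genotype the genes differed in how much they varied between tumours. The SD of log2 CPM around the genotype means was 1.68 for Dbp and 1.41 for Nr1d1, higher than in 96.2% and 93.7% of the genes tested. Nfil3, at 0.42, was near the median of all genes (0.43), and Arntl, at 0.23, exceeded 17.2% of them. Tumours of the same genotype thus spanned a wide range of Dbp and Nr1d1 and a narrow range of Arntl.

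Whether Nfil3 moved with or against its clock partners among tumours of the same genotype was asked with log2 CPM after subtracting each genotype's mean, a measure that is independent of the difference between genotypes. Over the 10 tumours, 45 pairs of genes were compared by Pearson's r and Spearman's rho, with exact two-sided permutation of tumours within genotypes (14400 arrangements, smallest possible p 6.94e-05) and Benjamini-Hochberg adjustment over the 45 pairs. Dbp, Tef, Nr1d1 and Nr1d2 varied together: the 6 pairs among them, all positive, were the 6 that passed. Dbp and Nr1d2 had r = 0.98 and rho = 0.95 (exact permutation p = 0.000278 and 0.000833, adjusted 0.00417 and 0.0177). Dbp and Nr1d1 had r = 0.97 and rho = 0.95, both at the smallest exact permutation p (adjusted 0.00313). Dbp and Tef had r = 0.96 and rho = 0.93 (exact permutation p = 0.000694 and 0.00167, adjusted 0.00573 and 0.0177). Without the 2 tumours farthest from the median of Dbp, 16IC 3 and 16IC 4, these r values were 0.96, 0.98 and 0.94. The other 3 pairs had r of 0.95 (Tef and Nr1d2), 0.92 (Nr1d1 and Nr1d2) and 0.90 (Tef and Nr1d1). Their adjusted exact permutation p was 0.00573, 0.00417 and 0.00573. Their rho was 0.90, 0.85 and 0.89, each with an adjusted exact permutation p of 0.0177. Without the 2 tumours farthest from the median of the first gene, r was 0.94, 0.88 and 0.90. Those tumours were EIC 5 and 16IC 4 for the Tef pairs, and EIC 5 and 16IC 3 for Nr1d1 and Nr1d2. With any 1 tumour left out, the smallest r among the 6 pairs lay between 0.85 and 0.94. Among all other genes tested, Nr1d2 had rank 4 in likeness to Dbp, Nr1d1 rank 11 and Tef rank 22, as a description.

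**Figure D2:**
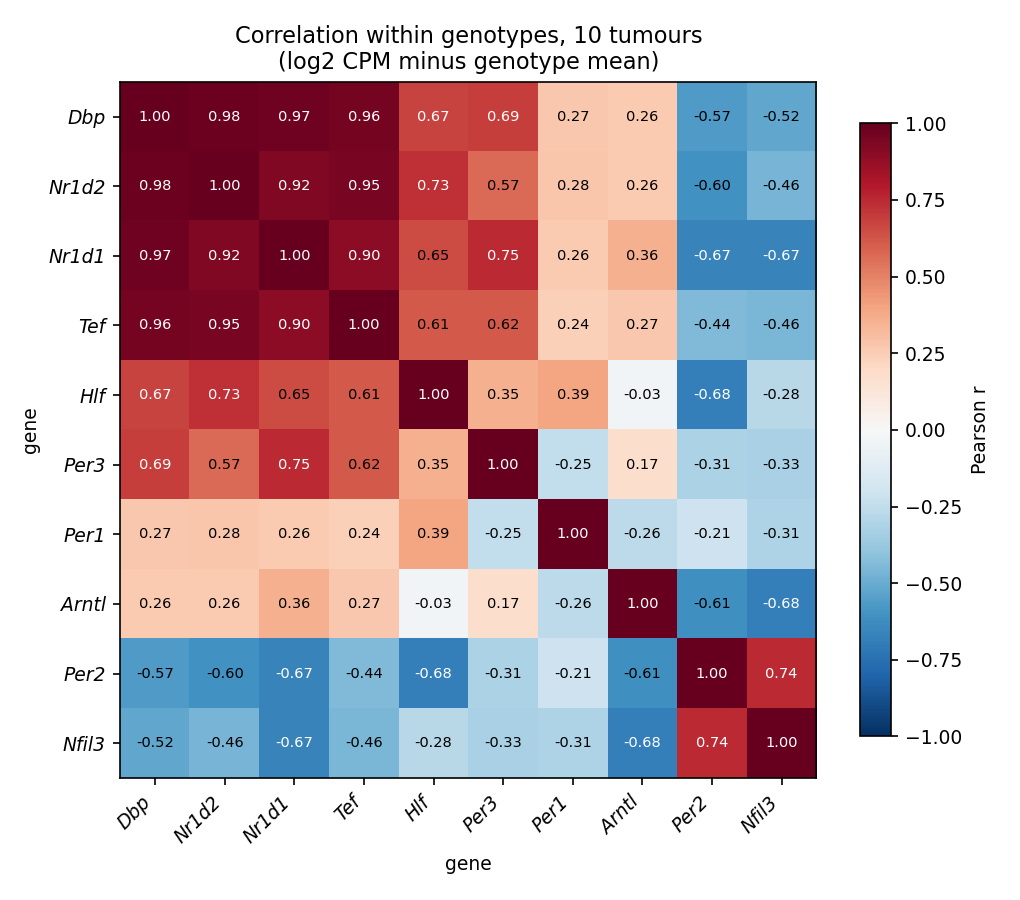
Pearson r between each pair of the 10 genes over 10 tumours, computed on log2 CPM minus the genotype mean, with red for positive and blue for negative values. Dbp, Nr1d2, Nr1d1 and Tef form a block with r of 0.90 to 0.98. Nfil3 and Per2 have negative r with the 4 genes of that block, and none of these negative pairs passed the adjusted threshold.

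Nfil3 had negative r with all 4 genes of the block, but none of these pairs passed the adjusted threshold. With Dbp, r was -0.52 and rho -0.59 (exact permutation p = 0.154 and 0.107, adjusted 0.301 and 0.185), and r was -0.24 without EIC 1 and EIC 5, the 2 tumours farthest from the median of Nfil3. With Nr1d1, r was -0.67 and rho -0.70 (exact permutation p = 0.0833 and 0.0615, adjusted 0.205 and 0.140), and r was -0.43 without those tumours. With Tef and Nr1d2, r was -0.46 each, and it was -0.02 and -0.17 without those tumours. With Arntl, r was -0.68 and rho -0.71 (exact permutation p = 0.104 and 0.0684, adjusted 0.224 and 0.140), and r was -0.06 without them. EIC 1 and EIC 5 had the most Nfil3 and little Dbp and Nr1d1. EIC 4 had as little Dbp and Nr1d1 as EIC 1 (13.2 and 18.1 CPM) but 14.1 CPM of Nfil3. That is near the 13.4 CPM of EIC 2, which had 115 CPM of Dbp and 120 CPM of Nr1d1. The positive pair of Nfil3 was with Per2, with r = 0.74 and rho = 0.83 (exact permutation p = 0.0190 and 0.00465), and r was 0.67 without EIC 1 and EIC 5. After adjustment this pair passed by rho (0.0299) and not by r (0.122). By rho 8 pairs passed: the 6 of the block, Nfil3 with Per2, and Per3 with Nr1d1 (rho = 0.87, exact permutation p = 0.00826, adjusted 0.0465, r = 0.75 with an adjusted exact permutation p of 0.183, and 0.57 without EIC 4 and EIC 5). Hlf had r of 0.61 to 0.73 with the genes of the block, Per1 0.24 to 0.28 and Arntl 0.26 to 0.36. None of these passed the threshold by r or rho. The values of Per1 and Arntl pool opposite signs. Arntl had r of -0.77 to -0.47 within 16IC and 0.54 to 0.61 within EIC. Per1 had r of 0.63 to 0.69 within 16IC and -0.34 to -0.10 within EIC. Nfil3 had r with the genes of the block of -0.41 to -0.08 within 16IC and -0.77 to -0.66 within EIC. Per2 had r with them of -0.67 to -0.44 over both genotypes, and none of these pairs passed by r or rho. Within 16IC the r of Per2 was -0.31 to 0.01, and within EIC it was -0.96 to -0.92. All r within 1 genotype rest on 5 tumours and were not tested.

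With log2 CPM of Dbp added to the edgeR fit as a covariate, an alternative chosen after the data had been seen, the log2 difference of Nfil3 was -1.46 (SE 0.28, 95% interval -2.08 to -0.84), against -1.68 with genotype alone. The same covariate brought Tef to 0.49, Nr1d2 to 0.26 and Nr1d1 to -0.57 (95% interval -1.07 to -0.07), with Hlf at 1.03, Per3 at 0.61, Per1 at -0.38, Arntl at -0.32 and Per2 at 0.92. These values carry no test. The set was chosen on the Nfil3 difference and the Nfil3 groups do not overlap, so any 16IC and EIC tumour differ in Nfil3 whatever their Dbp. The values are no independent support for a difference apart from Dbp, and whether the genotypes were harvested at different hours was not tested.

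**Figure D3:**
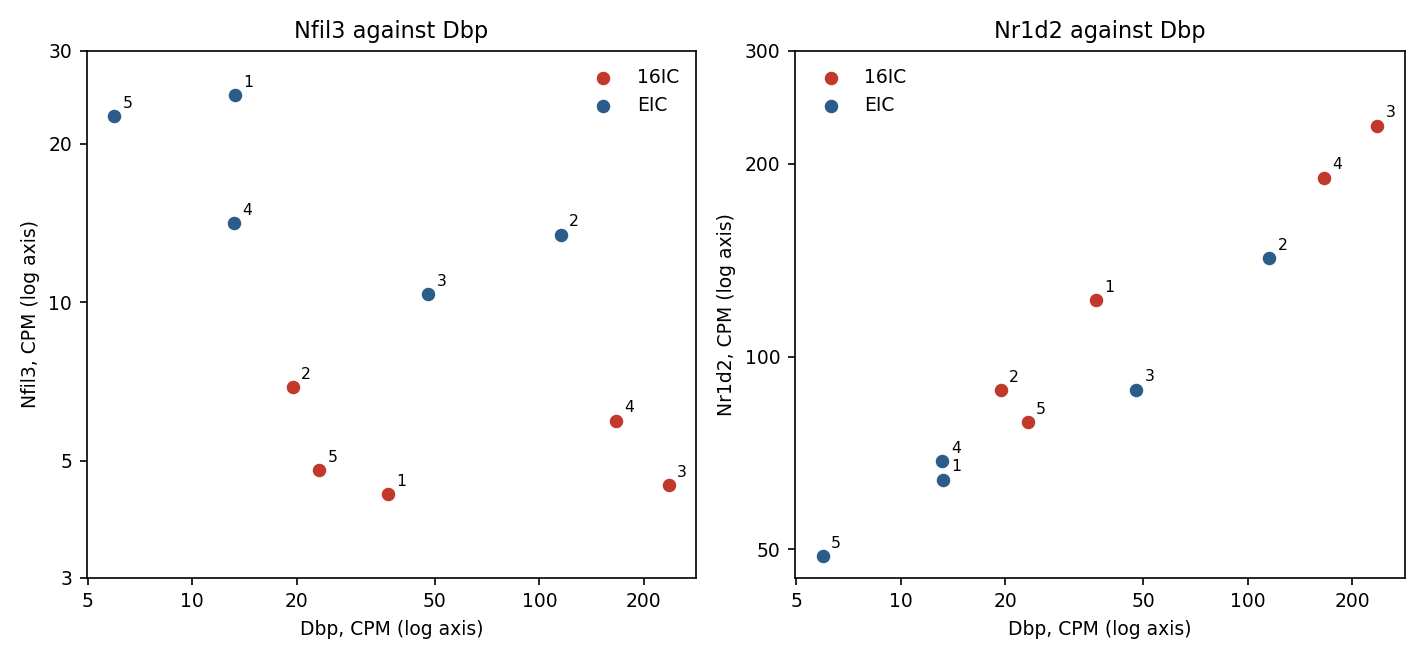
Nfil3 (left) and Nr1d2 (right) against Dbp in the 10 tumours, all in CPM on logarithmic axes, with 16IC in red, EIC in blue and the number of each tumour. Nr1d2 is highest where Dbp is highest, in 16IC 3 (229 CPM), and lowest where Dbp is lowest, in EIC 5 (48.8 CPM). The vertical gap between the genotypes in the left panel is the Nfil3 difference on which the set was chosen.

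**Figure D4:**
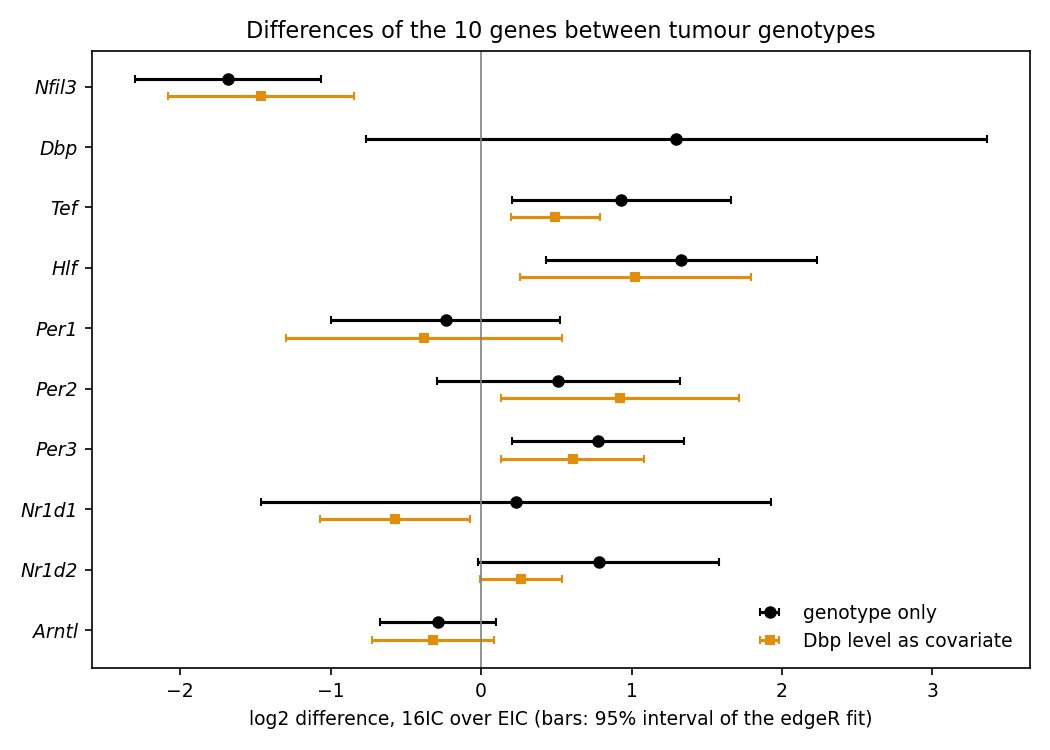
Log2 difference of 16IC over EIC for the 10 genes, with 95% intervals of the edgeR fit, for genotype alone (black circles) and with the Dbp level as a covariate (orange squares; none is drawn for Dbp). Nfil3 stands at -1.68 and -1.46, and the intervals of Dbp and Nr1d1 for genotype alone are the widest of the 10.

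Beyond the 10 genes, a list of 29 other clock genes was followed, of which 28 were tested (Rorb was not). By direction, 13 were higher in 16IC and 15 lower, with a median log2 difference of -0.07. EdgeR called none of them (0.0% of all genes), 4 of the 28 had an unadjusted p under 0.05 (13.1% of all genes), 2 of them higher (Cry2 and Fbxl21) and 2 lower (Arntl2 and Cdkn1a), and DESeq2 called 1, Cry2 (2.11% of all genes). These shares are near those of all genes. Among core activators 2 of 5 were higher, among repressors and their turnover factors 4 of 13, and among rhythmic output genes 7 of 10.

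Cry2, which encodes a repressor that acts with the PER proteins, had 79.1, 44.1, 86.7, 67.3 and 48.5 CPM in the 16IC tumours 1 to 5, against 21.6, 41.3, 38.5, 26.1 and 40.0 CPM in the EIC tumours 1 to 5. The groups did not overlap, as for 1 of the 28 clock genes tested (1.39% of all genes tested were higher in 16IC without overlap and 1.19% lower). The log2 difference was 0.96 (SE 0.25) with an edgeR adjusted p of 0.261 and a DESeq2 adjusted p of 0.0373. The DESeq2 call was kept in 4 of the 10 fits that left out a tumour, and it was lost without 16IC 1, 16IC 3, 16IC 4, EIC 1, EIC 3 or EIC 4, with adjusted p of 0.0550 to 0.143. Arntl2, a paralogue of Arntl, averaged 4.17 ± 4.22 CPM in 16IC and 14.8 ± 9.32 CPM in EIC (log2 difference -1.82, SE 0.80, edgeR adjusted p = 0.370), and its difference was -2.55 without 16IC 2. Npas2, a paralogue of Clock, averaged 4.81 ± 4.28 CPM in 16IC and 11.8 ± 7.25 CPM in EIC (log2 difference -1.30, SE 0.74, edgeR adjusted p = 0.465). Fbxl21, an F-box gene linked to cryptochrome turnover, averaged 1.21 ± 0.72 CPM in 16IC and 0.25 ± 0.24 CPM in EIC (log2 difference 2.24, SE 0.69, edgeR adjusted p = 0.288, and 2.83 without EIC 2) and rests on 1 to 34 counts per library. Cdkn1a, the cell-cycle inhibitor p21, averaged 47.9 ± 37.0 CPM in 16IC and 168 ± 198 CPM in EIC (log2 difference -1.81, SE 0.76, edgeR adjusted p = 0.360), and its difference was -0.77 without EIC 3. Timeless, Nampt and Klf9, also named by rule, had log2 differences of -0.38, 0.58 and 0.63 with edgeR adjusted p of 0.410 to 0.476.

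Several of these genes followed Dbp within genotypes. Of 56 relations (28 genes, each with Dbp and with Nfil3), 5 passed after adjustment, all with Dbp. Rora, an activator that acts on ROR elements, had r = 0.90 and rho = 0.93 (adjusted exact permutation p = 0.0156 and 0.0272) and r = 0.96 without 16IC 3 and 16IC 4. Arntl2 ran opposite to Dbp, with r = -0.93 and rho = -0.83 (adjusted exact permutation p = 0.0156 and 0.0692) and r = -0.90 without those tumours. The E-box repressors Ciart and Bhlhe40 each had r = 0.88 (adjusted exact permutation p = 0.0476 and 0.0498), with rho of 0.88 and 0.72 (adjusted exact permutation p = 0.0687 and 0.163) and r of 0.86 and 0.82 without those tumours. Lonrf3, a rhythmic gene of several tissues, had r = 0.87 and rho = 0.82 (adjusted exact permutation p = 0.0476 and 0.0850) and r = 0.87 without those tumours. Cry1, at r = -0.81 and rho = -0.85, Bhlhe41, at r = -0.75 and rho = -0.78, and Clock, at r = 0.76 and rho = 0.90, did not pass (adjusted exact permutation p of 0.0687 to 0.164), with r of -0.78, -0.66 and 0.83 without those tumours. Fbxw11, of the turnover factors, did not pass either, at r = -0.72 and rho = -0.81 (adjusted exact permutation p = 0.147 and 0.0859). Its r was -0.73 without those tumours. The count of genes passing with Dbp was 0 without 16IC 2, 16IC 5, EIC 4 or EIC 5, 1 without EIC 1 or EIC 2, 2 without 16IC 1 or 16IC 3, 3 without 16IC 4, and 1 by rho. With Nfil3, 3 genes had an unadjusted p under 0.05 and none passed. Among them were Cry1, at r = 0.63 and rho = 0.73, and Ciart, at r = -0.77 and rho = -0.82 (adjusted exact permutation p of 0.0859 to 0.209), and without EIC 1 and EIC 5 their r was 0.60 and -0.58.

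**Figure D5:**
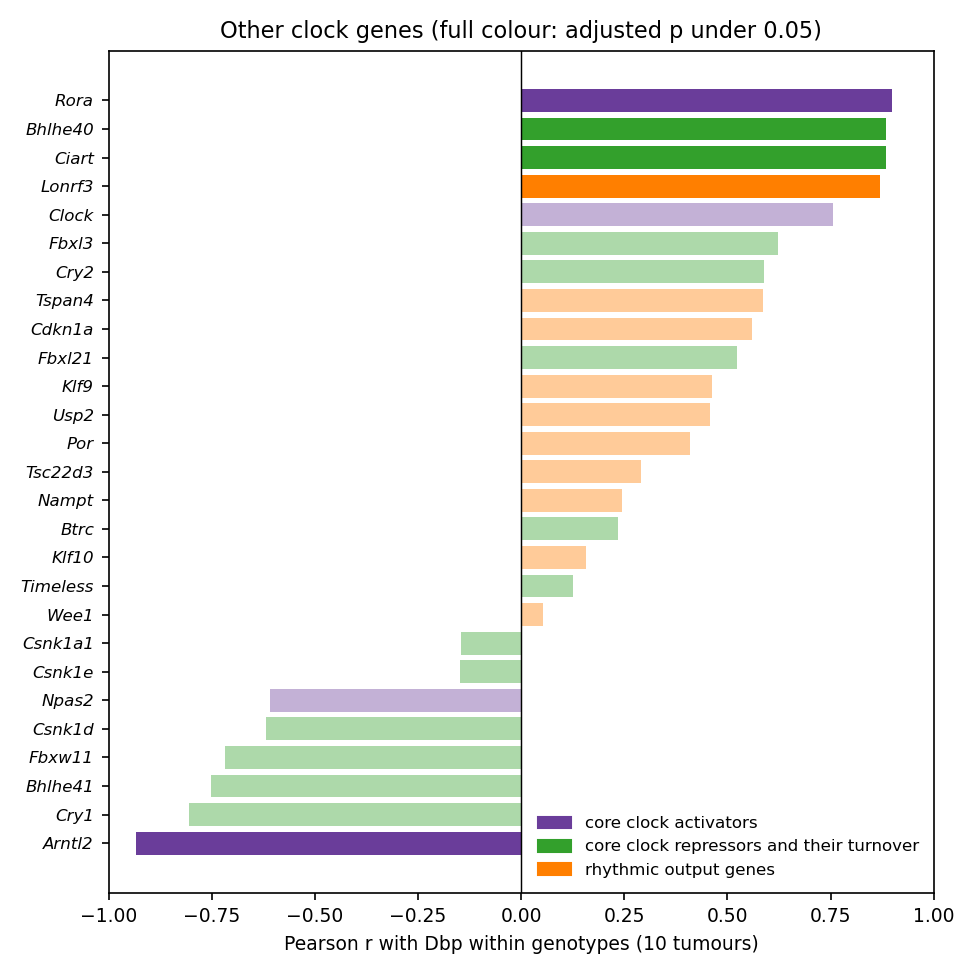
Pearson r of other clock genes with Dbp over 10 tumours, on log2 CPM minus the genotype mean, coloured by list, with full colour for the 5 genes that passed the adjusted threshold. Rora (0.90), Bhlhe40 and Ciart (0.88 each) and Lonrf3 (0.87) lie at the positive end and Arntl2 (-0.93) at the negative end.

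By likeness over all 10 tumours, a measure that the difference between genotypes takes part in, the genes closest to Nfil3 in log2 CPM were Glipr1 (r = 0.96), Reep3 (0.94), Hsp90ab1 (0.93), Sh3glb1 (0.92) and Pfkfb1 (0.91), of 11993 genes ranked. Glipr1 averaged 2.03 ± 0.88 CPM in 16IC and 33.7 ± 23.0 CPM in EIC. All 5 were lower in 16IC without overlap (1.19% of all genes tested). They were picked for likeness to Nfil3, which is itself lower in 16IC without overlap, so nothing is read from this. After subtracting the genotype means, the closest to Nfil3 were Zfp472 (0.97), Cybc1, Bin3 (0.92 each), Zcchc9 (0.91) and Msrb1 (0.90), and the groups overlapped for all 5. The closest to Dbp were Zfp30, Acat1, Nr1d2, Hddc3 (0.98 each) and Gpx2 (0.97). Acat1, a mitochondrial enzyme of ketone body and isoleucine metabolism, averaged 162 ± 55.8 CPM in 16IC and 122 ± 40.3 CPM in EIC.

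Of 3 companion lists, the immediate-early genes had calls by DESeq2 and the other 2 lists had none, and edgeR called none in any of them. Of 13 immediate-early genes, which respond within minutes to stress and growth signals, 12 were lower in 16IC (13 under scaling to total counts), with a median log2 difference of -0.88. EdgeR called none after adjustment (0.0% of all genes), 5 had an unadjusted p under 0.05 (13.1% of all genes), and DESeq2 called 3 (2.11% of all genes), all lower. The groups did not overlap for 4 of the 13 (1.19% of all genes tested were lower in 16IC without overlap and 1.39% higher). Dusp1, a phosphatase of MAP kinases, averaged 18.0 ± 4.63 CPM in 16IC and 41.7 ± 10.2 CPM in EIC without overlap (log2 difference -1.21, SE 0.23, DESeq2 adjusted p = 0.000703, edgeR adjusted p = 0.154). Fosb, a subunit of AP-1, averaged 1.84 ± 0.97 CPM in 16IC and 11.0 ± 7.22 CPM in EIC without overlap (log2 difference -2.57, SE 0.57, DESeq2 adjusted p = 0.000693, edgeR adjusted p = 0.249). Of 8 tested glucocorticoid-induced genes, 6 were lower and 2 higher, with a median log2 difference of -0.20. In this list 1 gene had an unadjusted edgeR p under 0.05 (13.1% of all genes). Ddit4 was at -1.59 (SE 0.50) and Klf9 at 0.63 (SE 0.35). Of 9 tested factors of the C/EBP and ATF families, relatives of NFIL3 by their bZIP domain, 8 were lower and 1 higher, with a median of -0.14. Here too 1 gene had an unadjusted edgeR p under 0.05 (13.1% of all genes). Atf5 was at -0.49 (SE 0.16) and Ddit3 at -0.83 (SE 0.44), and none of the 9 passed either tool's threshold.

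Among markers of other cells, all 5 neutrophil genes were lower in 16IC. Their summed level was 3.47 to 21.9 CPM in 16IC and 14.2 to 94.6 CPM in EIC. DESeq2 called 3 of them (2.11% of all genes) and edgeR none after adjustment (0.0% of all genes). All 5 had an unadjusted edgeR p under 0.05 (13.1% of all genes). All 7 macrophage genes were lower too, with a sum of 200 to 491 CPM in 16IC and 274 to 513 CPM in EIC, none called by either tool. For natural killer and innate lymphoid cells, the cells Nfil3 is best known for, 6 of 12 genes passed the filter and 5 of these were higher in 16IC (4 under scaling to total counts), with a sum of 421 to 723 CPM in 16IC and 265 to 462 CPM in EIC. Gzmb and Gata3 were called by DESeq2 (2.11% of all genes), both higher. Gzmb, a granule protease, averaged 5.30 CPM in 16IC and 0.41 CPM in EIC. EdgeR called none after adjustment (0.0% of all genes), and 2 had an unadjusted edgeR p under 0.05 (13.1% of all genes). The sum is made mostly of Id2 (312 CPM on average in 16IC and 207 CPM in EIC) and Gata3 (193 CPM in 16IC and 106 CPM in EIC), which mammary luminal cells also express. Below the filter, Ncr1, Klrb1c, Tbx21 and Gzma averaged 0.84, 0.47, 0.53 and 0.996 CPM in 16IC, against 0.18, 0.11, 0.22 and 0.08 CPM in EIC, and Prf1 and Eomes averaged 0.50 and 0.16 CPM in 16IC, against 0.60 and 0.18 CPM in EIC. Of 6 basal and myoepithelial genes 5 were lower in 16IC, with a median log2 difference of -1.01. Their sum was 21.9 to 196 CPM in 16IC and 38.2 to 630 CPM in EIC, and 2 had an unadjusted edgeR p under 0.05 (13.1% of all genes). Of 6 fibroblast genes 5 were lower (6 under scaling to total counts), with a median of -0.78 and a sum of 372 to 3270 CPM in 16IC and 1683 to 6548 CPM in EIC, and none had. Neither tool called a gene of these 2 lists. All 6 skeletal muscle genes were lower in 16IC, with sums that overlapped (3.34 to 306 CPM in 16IC and 9.65 to 2113 CPM in EIC). No other marker list held a gene that either tool called or that had an unadjusted edgeR p under 0.05. Their median log2 differences were 0.03 for type 1 conventional dendritic cells (4 genes tested), 0.01 for T cells (2), -0.18 for endothelium (6) and -0.45 for adipocytes (6). B cells and skin keratinocytes had 1 tested gene each, at -2.46 and -0.25. The part of all these markers and of the companion lists in the Nfil3 difference was not tested.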

How the data were processed

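RNA of 10 mammary tumours (5 16IC, 5 EIC) was analysed from a table the authors deposited. Its raw counts per gene feed all tests. The authors' normalized counts (a signal: counts divided by a single factor per library), log2 fold changes and p-values served as a check on the table, and the authors' FPKM to compare levels between genes. The submitters' processing notes name GRCm38 (mm10) and the tools STAR, HTSeq, Trimmomatic, limma and edgeR. Versions and strand setting: not given in the sources used here. No per-sample column was left out.

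Counts of genes passing filterByExpr (minimum count 10) were fitted in R 4.3.3 by the robust quasi-likelihood method of edgeR 4.0.16, with TMM factors and genotype as the sole term. P-values were adjusted by Benjamini-Hochberg and read at 0.05. DESeq2 1.42.0 was the alternative. Log2 CPM used a prior count of 2, and 95% intervals come from the edgeR fit. Permutations ran in Python 3.11.15. Both were tested on simulated data. Genes below the filter held 0.188% of the counts.

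The 10 genes, the other lists and the rules were chosen with earlier results of these data known. Named besides the 10 were, per clock list, the 3 tested genes with the smallest unadjusted p, per companion list 2, and the 5 most like Nfil3 or Dbp (mean log2 CPM of at least 1). Other genes with values were chosen after these were seen. An item of the clock lists that enters the counts is not reported here by name. Groups come from the genotype labels, and tumour numbers follow the order of the samples. Each tumour has its own animal name, so p-values measure the spread between animals.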

Additional observations from a re-analysis of the deposited data

Results flagged for a closer look

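Within groups of 5 tumours, 48 groups were checked on CPM, not on log2 CPM, for a tumour far from the rest, and 3 had one. The rate of about 1 in 20 groups by chance assumes normally distributed values, which CPM need not follow. Nothing is therefore read from the count of 3, and the check was not made on log2 CPM. Hlf was 145 CPM in EIC 2, against 38.6 to 60.3 CPM in the other EIC tumours. Cdkn1a was 514 CPM in EIC 3, against 31.8 to 144 CPM in the other EIC tumours. Ddit4 was 637 CPM in EIC 3, against 119 to 251 CPM in the other EIC tumours.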

How the results depend on the processing

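The log2 difference of Nfil3 was -1.68 in the main fit and -1.72 to -1.69 under DESeq2, DESeq2 size factors in edgeR and total count scaling. It was -1.46 with the Dbp covariate and -1.82 to -1.51 with each tumour left out. The set was chosen on this difference and the Nfil3 groups do not overlap, so these values are a description and no support for it. Across all genes edgeR called 0, DESeq2 356, and edgeR 0 to 2 with a tumour left out, namely Slc22a18 without EIC 1 and Adamts4 and C130071C03Rik without EIC 2. DESeq2 called 178 to 839 with a tumour left out. Of the other clock genes edgeR called 0 and DESeq2 1, Cry2, and DESeq2 0 to 2 with a tumour left out. The causes were not tested. The count of 6 correlated pairs was 5 (without 16IC 2) to 9 (without 16IC 1), and 6 under total count scaling and with a prior count of 0.5. Of 139 differences of the 10 genes under alternatives 3 changed sign, all of Nr1d1. No paired analysis was possible because the labels give animal names and no number shared between the genotypes.

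With 5 tumours per genotype, differences within the spread between tumours were not detectable, and no sample gives the hour of harvest. Genes that overlap others on the opposite strand (Dbp, Nr1d1, Tef, Arntl, Cry2, Cdkn1a, Atf5, Ddit3, Timeless, Dusp1) are uncertain to that extent.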
